A study of Xiphophorus multilineatus with 4 samples.

Results

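The 42 transcripts described here are the well-read brain transcripts that were modestly and evenly lower in Xiphophorus multilineatus males of the high quality juvenile environment (HQJE) than in those of the low quality one (LQJE). They were chosen from the 18872 transcripts of the count table. Counts were divided by a size factor for each brain, which is the median over transcripts of the count divided by its geometric mean over the brains, and the result is called the normalized count. A transcript was kept when its mean normalized count over the 4 brains was 200 or more, when the larger brain of each group was at most 1.25 times the smaller one, and when the LQJE mean divided by the HQJE mean was from 1.4 to under 2. This quotient, with LQJE on top, is called the ratio below. The count limit was met by 9288 transcripts and the count and spread limits together by 7068, so that the 42 transcripts are 0.452% of the well-read transcripts and 0.594% of those within both limits. The choice used the HQJE and LQJE values themselves, so the differences between groups given here describe how the transcripts were chosen, and no p-value for them is evidence of a difference.

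The whole brains of 4 adult males of the Y-II size class were sequenced, each as its own polyA library. There were 2 HQJE males (fish 15 and 11), which were housed singly as juveniles and fed flakes and brine shrimp without limit, and 2 LQJE males (fish 17 and 18), which grew up in crowded group tanks with flakes once a day. All of them were lab-reared F2 descendants of wild-caught females, and all were kept on the high quality adult diet. Food, density and company differed together between the juvenile environments, so these cannot be told apart, and the ages of the fish are not given in the sources used here.

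Nutritional programming is the lasting effect of early nutrition on adult physiology and behavior. The brain takes part in it because neurons of the hypothalamus sense energy stores and set appetite and energy use. The brain also holds glia, vessel cells and blood, and RNA from an entire brain averages over all of these. A lower count in whole-brain RNA can come from fewer cells of a type or from less RNA per cell, and these cannot be told apart. The comparison between HQJE and LQJE males asks which transcripts carry a trace of the juvenile environment into adulthood.

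The transcripts carry X. maculatus identifiers, and the sources used here pair these with gene names only for transcripts of the study's list of differentially expressed genes. That list has 131 transcripts, of which 97 have a gene name, and 0 of the 42 transcripts are on it. The study also set a limit on the p-value, which it does not call adjusted, so its 131 cannot be set against the adjusted counts given below. It listed only changes of at least 2-fold, whereas the rule takes ratios under 2. The 0 thus follows from the limits and is not a result about the 42. Without gene names the functions of the 42 transcripts were not analysed here, and neither were brain marker genes. The transcripts are described by their levels, and 2 of them are given by identifier, the most abundant one and the one with the highest ratio. There is 1 pair among the 42 with consecutive identifiers, and whether these transcripts share reads was not tested.

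The counts of the brains summed to 21700462 and 21321437 in HQJE fish 15 and 11, and to 14260762 and 25531496 in LQJE fish 17 and 18. LQJE fish 17, the least deeply sequenced brain, stood apart. Its log2 CPM, a count scaled to the total of its brain, correlated at 0.978 with each of the other brains, whereas pairs of the other brains correlated at 0.988 to 0.990. These correlations are across 15078 transcripts of the same libraries and are a description. Every pair of brains differed by more than sampling noise, with a chi-square per degree of freedom of 14.9 to 29.7, so that no library was a copy of another. Some transcripts of skeletal muscle genes also differed between the groups. The study's list, chosen by the study on these same brains, names 9 transcripts of a skeletal muscle gene list. Their normalized counts summed to 365 and 649 in HQJE fish 15 and 11 and to 985 and 1039 in LQJE fish 17 and 18. The sums include the parvalbumins pvalb1 and pvalb4, which together form a large part of them in LQJE. Some neurons also make parvalbumin, so the sums are not a measure of muscle RNA alone. In LQJE fish 17 and 18, pvalb1 was at 363 and 353 and pvalb4 at 125 and 158. The troponin and myosin transcripts among the 9 were also lower in both HQJE brains than in both LQJE brains. The most abundant of these, tnnt3a, was at 58.6 and 54.1 in HQJE fish 15 and 11, against 162 and 161 in LQJE fish 17 and 18. Both HQJE brains were lower than both LQJE brains in 8 of the 9, against 19.4% of the 18474 transcripts with any count. The study's list was drawn from this same contrast, so much of that separation was fixed by the choice. Among the 8, mylpfa, a fast muscle myosin light chain, was at 0 in both HQJE brains. It was at 4.35 and 29.9 normalized counts in LQJE fish 17 and 18, so it was low in fish 17 too. The exception among the 9 was smyd1a, a muscle methyltransferase, at 50.2 and 349 normalized counts in HQJE fish 15 and 11 and 30.5 and 29.1 in LQJE fish 17 and 18. It makes up much of the sum of HQJE fish 11, and the higher sum in fish 11 than in fish 15 rests on it. The part of muscle RNA in the 42 transcripts was not tested.

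The 42 transcripts spanned a wide range of levels. Their mean normalized count over the 4 brains ran from 209 to 38505 with a median of 428, against a median of 987 over the 7068 transcripts within the count and spread limits. Of the 42, 20 (47.6%) had a mean under 400, whereas this was so for 19.1% of the 7068. At the other end 13 had a mean of 1000 or more and 2 had a mean of 10000 or more. The chosen transcripts thus lay mostly in the lower part of the range that the rule admits, with a few highly abundant ones. Every one of the 42 was read well in each brain. The lowest count of any of them was 161 and 160 reads in HQJE fish 15 and 11, and 179 and 285 reads in LQJE fish 17 and 18.

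**Figure D1:**
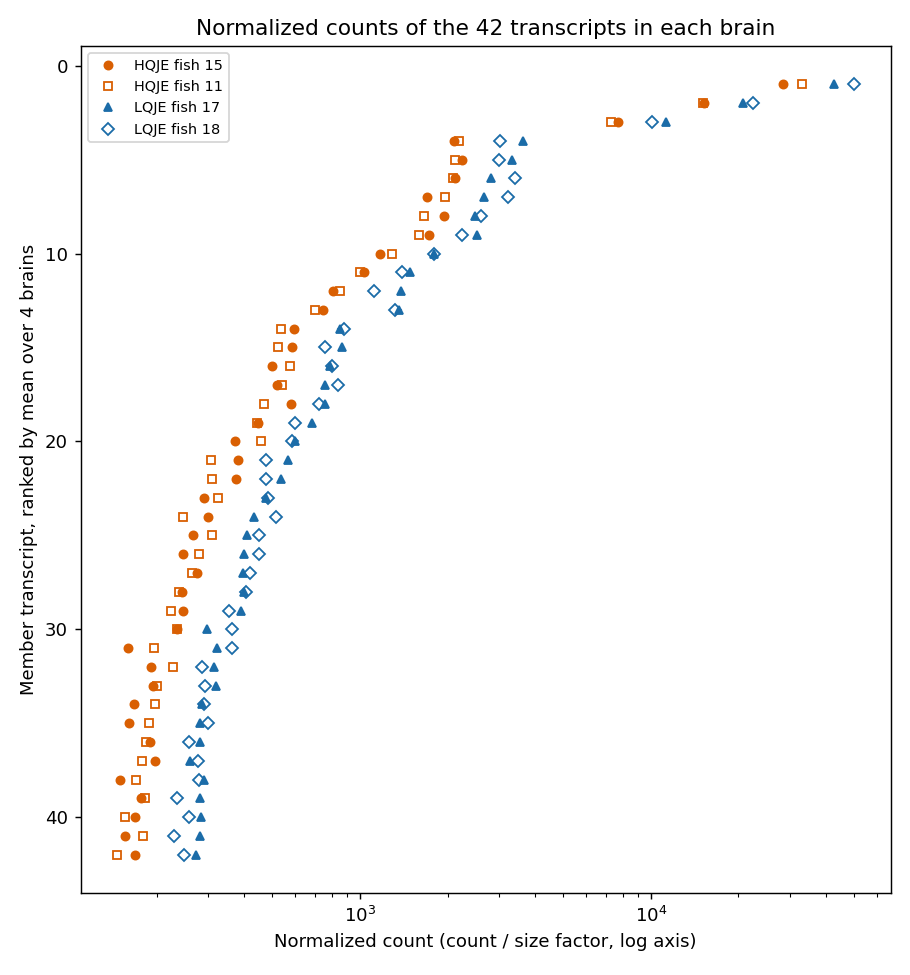
Normalized count (horizontal, log axis) of each of the 42 transcripts in each brain, with transcripts ranked down the page by their mean over the 4 brains. Orange symbols are HQJE brains and blue symbols are LQJE brains, and in each row the orange pair lies left of the blue pair, as the rule requires.

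The most abundant of the 42 was ENSXMAT00000005308. Its normalized count was 28415 and 33156 in HQJE fish 15 and 11, against 42655 and 49794 in LQJE fish 17 and 18. Both HQJE brains were low and both LQJE brains were high, and the brains of a group still lay 1.17 times apart in HQJE and 1.17 times apart in LQJE. The group means were 30786 ± 3352 in HQJE and 46225 ± 5048 in LQJE (SD, n = 2 each), a ratio of 1.502. On the log2 scale edgeR put HQJE over LQJE at -0.60 (standard error 0.115). It rests on 30555 and 36157 reads in HQJE brains and on 29409 and 61644 reads in LQJE brains. When reads were pooled within groups the ratio was 1.53, with an exact 95% interval of 1.52 to 1.55 for counting error only, so for this transcript the spread between brains was far larger than the counting error.

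The second most abundant transcript was tighter. It had 15245 and 15151 normalized counts in HQJE fish 15 and 11, against 20754 and 22487 in LQJE fish 17 and 18. The HQJE brains differed by less than 1% of their level and the ratio was 1.42, close to the lower bound of the rule. Its log2 fold change of -0.52 had the smallest standard error of the 42, 0.0740. The third had 7734 and 7296 normalized counts in HQJE fish 15 and 11, against 11309 and 10055 in LQJE fish 17 and 18, and a ratio of 1.42. In the third transcript fish 17 was the higher LQJE brain and in the first and second it was the lower one, so no single LQJE brain led these abundant transcripts.

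The 2 transcripts with means of 10000 or more lay in a range of levels where most transcripts within the count and spread limits were lower in HQJE. Over the 260 transcripts within the count and spread limits that had such a mean, the median log2 of HQJE over LQJE was -0.11 and 74.6% were lower in HQJE. The median was -0.03 over the 3239 transcripts with means from 1000 to under 10000, of which 58.2% were lower in HQJE. It was 0.02 over the 3569 with means from 200 to under 1000, of which 46.5% were lower. The group difference of the transcripts within the count and spread limits, which include the 42, thus moved with their level. The part of this in the 42 transcripts was not tested. The differences of the 42 were larger than these medians throughout, as their choice requires.

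**Figure D2:**
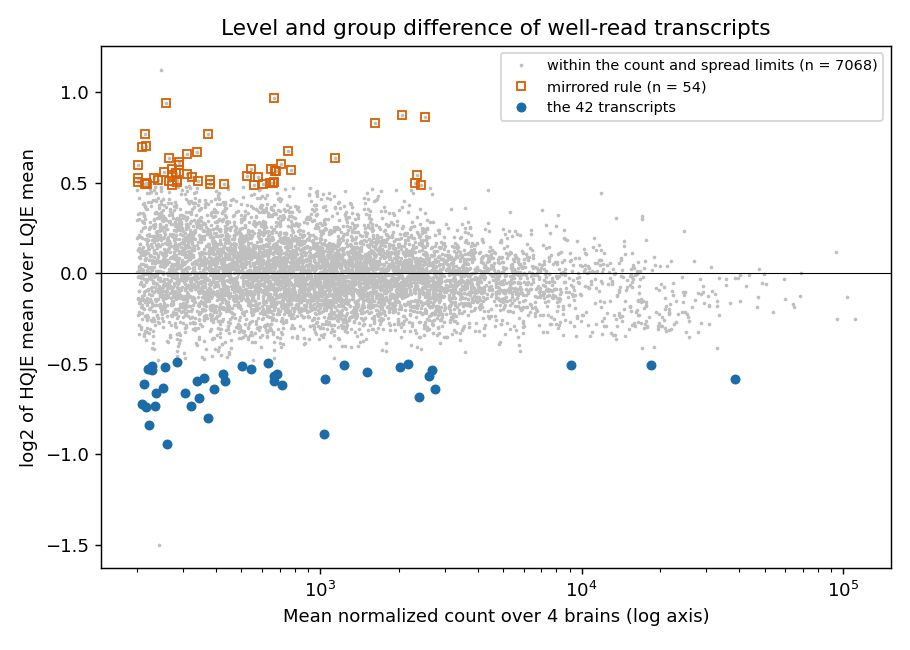
The log2 of HQJE mean over LQJE mean (vertical) against the mean normalized count over the 4 brains (horizontal, log axis) for the 7068 transcripts within the count and spread limits. The 42 transcripts (blue) lie below the cloud and the 54 transcripts of the mirrored rule (orange squares) above it. At means of 10000 or more the cloud lies mostly below 0.

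The ratios of the 42 crowded toward the lower bound. The ratio was from 1.4 to under 1.5 in 20 transcripts, from 1.5 to under 1.6 in 12, from 1.6 to under 1.8 in 8 and from 1.8 to under 2 in 2. The median ratio was 1.502. The lowest ratio inside the bound was 1.41 and the nearest transcript below it had 1.39. Above the highest ratio of 1.92 came a gap. The only transcript within the count and spread limits with a ratio of 2 or more was pvalb1 (ENSXMAT00000014707), a parvalbumin, which is a calcium-binding protein of fast muscle and of some neurons. Its normalized count was 125 and 128 in HQJE fish 15 and 11, against 363 and 353 in LQJE fish 17 and 18, a ratio of 2.83. At the other limits, the lowest mean inside was 209 and the next below the minimum was 197, and the largest spread inside was 1.24 and the next above the limit was 1.27.

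The highest ratio of the 42 belonged to ENSXMAT00000014787, a transcript of low level. Its normalized count was 160 and 196 in HQJE fish 15 and 11, against 322 and 363 in LQJE fish 17 and 18. The higher HQJE brain stayed well below the lower LQJE brain. The means were 178 ± 25.7 in HQJE and 342 ± 28.8 in LQJE (SD, n = 2 each), so that HQJE was at 52.0% of LQJE. The log2 fold change was -0.96 (standard error 0.176), on 172 and 214 reads in HQJE fish 15 and 11 and 222 and 449 reads in LQJE fish 17 and 18. Its pooled ratio of 1.95 had an exact 95% interval of 1.72 to 2.22 for counting error only, which reaches past the upper bound of the rule.

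The second highest ratio, 1.85, came with more reads and less spread. That transcript had 749 and 703 normalized counts in HQJE fish 15 and 11, against 1365 and 1321 in LQJE fish 17 and 18. The brains of a group differed by a factor of 1.06 in HQJE and 1.03 in LQJE. Of the 42 it had the widest gap, since the lower LQJE brain was 1.76 times the higher HQJE brain. Its log2 fold change was -0.90 (standard error 0.0930). The third highest ratio was 1.79, in a transcript at 150 and 170 normalized counts in HQJE fish 15 and 11, against 290 and 280 in LQJE fish 17 and 18. In the fourth, with a ratio of 1.74, the values were 299 and 247 in HQJE fish 15 and 11, against 434 and 516 in LQJE fish 17 and 18, so that a high ratio occurred both with nearly equal and with less equal brains.

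The most even transcript of the 42 had 245 and 239 normalized counts in HQJE fish 15 and 11, against 400 and 405 in LQJE fish 17 and 18. Its brains differed by a factor of 1.02 in HQJE and 1.01 in LQJE, with a ratio of 1.66. The pair with consecutive identifiers was also alike in its values. The first of the pair had 167 and 198 normalized counts in HQJE fish 15 and 11, against 286 and 292 in LQJE fish 17 and 18. The second had 161 and 189 in HQJE fish 15 and 11, against 281 and 300 in LQJE fish 17 and 18. If such transcripts share reads, the way the authors counted could split reads between them, so both are uncertain.

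Over all 42 transcripts the HQJE brains lay below and the LQJE brains above the mean of the transcript. In HQJE fish 15 a transcript was at 61.5% to 91.5% of its 4-brain mean (median 79.0%) and in HQJE fish 11 at 66.0% to 91.0% (median 80.0%). In LQJE fish 17 it was at 105% to 133% (median 122%) and in LQJE fish 18 at 107% to 139% (median 119%). The groups did not overlap in any of the 42, and the lower LQJE brain was 1.25 to 1.76 times the higher HQJE brain. The limits on ratio and spread do not allow an overlap. Both HQJE brains were lower than both LQJE brains in 29.3% of the 7068 transcripts within the count and spread limits and in 19.4% of the 18474 transcripts with any count. Taken as reads, the 42 transcripts held 0.374% and 0.407% of all counts in HQJE fish 15 and 11, against 0.538% and 0.574% in LQJE fish 17 and 18. Without the most abundant transcript these shares were 0.233% and 0.237% for HQJE fish 15 and 11, against 0.332% and 0.333% for LQJE fish 17 and 18. The brains of a group then differed little, which the spread limit on each transcript favours, and differences in opposite directions can cancel in a sum.

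**Figure D3:**
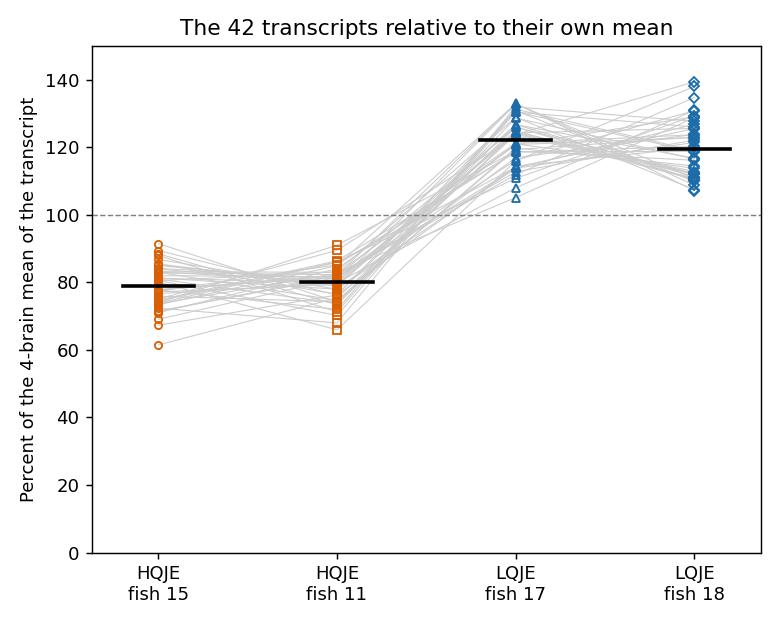
Normalized count of each of the 42 transcripts as percent of its own mean over the 4 brains, for the HQJE brains (fish 15 and 11) and the LQJE brains (fish 17 and 18). Grey lines join the values of 1 transcript and black bars are medians over the transcripts, at 79.0% and 80.0% in HQJE fish 15 and 11 and 122% and 119% in LQJE fish 17 and 18.

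The rule set no limit on the direction of the differences within a group, but its ratio limits may still favour a direction. Among the 42 transcripts HQJE fish 15 was above fish 11 in 23 (54.8%), against 61.1% of the 7068 transcripts within the count and spread limits. LQJE fish 17 was above fish 18 in 22 (52.4%), against 32.9% of the 7068. With the rule turned around, so that HQJE was the higher group, 54 transcripts were chosen. Among these, fish 15 was above fish 11 in 29.6% and fish 17 above fish 18 in 27.8%. The shares thus differed with the side that the ratio selects. The LQJE pair was farther apart than the HQJE pair in 21 of the 42. The median spread, the larger brain over the smaller, was 1.11 in HQJE and 1.102 in LQJE over the 42, against 1.07 in HQJE and 1.08 in LQJE over the 7068. The 42 transcripts, more of which are of low level, were therefore somewhat less even between brains of a group than the others within the limits, and the difference was not tested. A spread below 1.1 in both groups was seen in 7 of the 42 (16.7%), against 41.0% of the 7068. The difference between the brains of a group was beyond its 95% counting interval in 12 of the 42 (28.6%) for the HQJE pair and in 16 (38.1%) for the LQJE pair, against 38.8% and 39.6% of the 7068 for the same pairs. For the 54 transcripts of the rule turned around the shares were 46.3% for the HQJE pair and 29.6% for the LQJE pair. The counting interval is wider at low counts, so these shares depend on level as well. The spread limit bounds the differences in all of these transcripts.

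**Figure D4:**
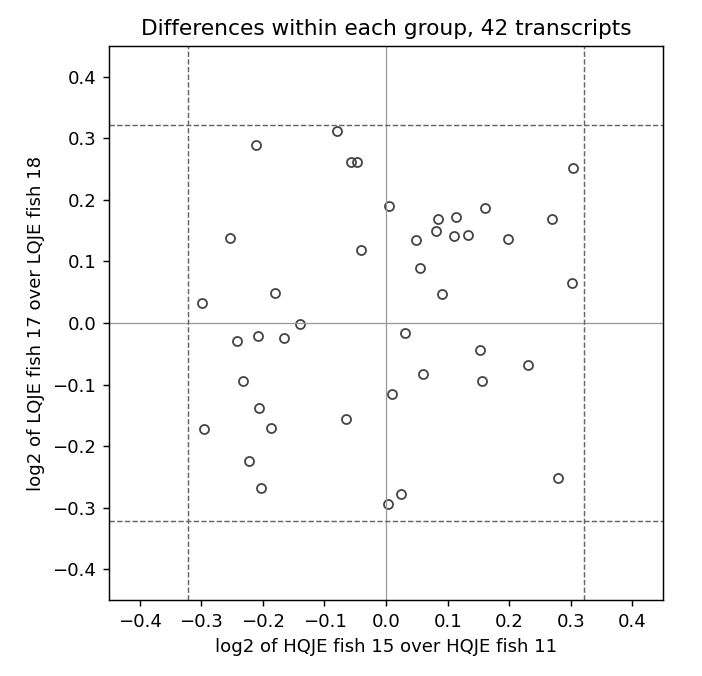
The log2 of LQJE fish 17 over LQJE fish 18 (vertical) against the log2 of HQJE fish 15 over HQJE fish 11 (horizontal) for the 42 transcripts. Dashed lines mark the spread limit of 1.25 in either direction. Points fall on all sides of both zero lines, with fish 17 above fish 18 in 22 and fish 15 above fish 11 in 23.

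The spread limit removed most well-read transcripts with a ratio in the same range. Of the 9288 transcripts with a mean of 200 or more, 142 had a ratio from 1.4 to under 2. The spread was over the limit in HQJE alone for 18 of them, in LQJE alone for 48 and in both groups for 34, which leaves the 42. In the 48 transcripts that failed in LQJE alone, fish 17 was the higher LQJE brain in 42, against 36.5% of all 9288. In the mirrored range of ratios 51 transcripts failed in LQJE alone, and fish 17 was the higher LQJE brain in 11 of them. Transcripts with uneven LQJE brains thus had fish 17 mostly on the side that the ratio selects.

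The rule turned around, with the HQJE mean 1.4 to under 2 times the LQJE mean, gave 54 transcripts. Lower and higher transcripts were therefore both found, and 43.8% of these 96 were lower in HQJE. This split moved with the scaling, the lower bound and the brains used. With the TMM scaling of edgeR 46 transcripts were lower and 43 higher, so that 51.7% were lower, and with total counts alone 27 were lower and 94 higher, so that 22.3% were lower. With a lower bound of 1.3 the share was 35.4% (104 lower and 190 higher), and with 1.5 it was 55% (22 lower and 18 higher). With 1 brain left out it ranged from 30.3% (fish 15 out, 104 lower and 239 higher) to 52.1% (fish 11 out, 85 lower and 78 higher). Of the 42 transcripts 41 were also chosen with TMM scaling and 27 with total counts. The higher transcripts were less abundant at the upper end. Their highest mean was 2522 normalized counts, and 7 of the 54 had a mean of 1000 or more, against 13 of the 42.

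The fit across all 18474 transcripts with any count gives the background. Log2 fold changes (HQJE over LQJE, edgeR with TMM scaling) ran from -0.96 to -0.51 over the 42 with a median of -0.60, against a median of -0.02 over all tested transcripts. The standard errors of the 42 ran from 0.0740 to 0.194 with a median of 0.134. Each transcript had an unadjusted p of 0.05 or less in the quasi-likelihood test of edgeR, as did 4.58% of all tested transcripts in the same direction. The rule selects for a low p, since it takes even brains and separate groups, so nothing is read from this count. In the quasi-likelihood test with Benjamini-Hochberg adjustment 0 transcripts of the 18474 (0%) had an adjusted p of 0.05 or less, while 1403 had an unadjusted p of 0.05 or less, and the lowest adjusted p was 0.576. Other tests made some adjusted calls. The edgeR exact test made 28 (0.152%), of which 9 were among the 42. The edgeR likelihood ratio test made 42 (0.227%) with 12 among the 42. The DESeq2 Wald test made 97 (2.56% of the 3789 it adjusted) with 11 among the 42. DESeq2 gave an adjusted p to only 3789 of the 18474 transcripts it tested. Its 2.56% is thus over another set of transcripts than the 0.152% and 0.227% of the edgeR tests, and cannot be set against them. How many of the 42 had one was not counted, so the 11 are not a share of 42 tested transcripts. By unadjusted p alone, the exact, likelihood ratio and DESeq2 tests called 42, 42 and 41 of the 42. They called 3.68%, 4.18% and 3.29% of all tested transcripts, in the same order and direction.

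The choice of transcripts also depended on which brains were used. With 1 brain left out, size factors and means were recomputed over the remaining brains, so the limit of 200 shifted against the same counts. Transcripts of low level can leave the choice for that reason alone. The numbers below thus do not measure dependence on the values of a brain alone. When the rule was applied with 1 brain left out, 36 of the 42 were chosen again when HQJE fish 15 was the brain left out and 32 when it was HQJE fish 11. For the LQJE brains the numbers were 27 when fish 17 was left out and 30 when fish 18 was. The sign of the difference cannot turn when 1 brain is left out, because the rule keeps both HQJE brains below both LQJE brains in each of the 42. With 2 brains in each group an exact two-sided permutation test cannot give a p below 0.333.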

How the data were processed

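The authors aligned trimmed 100 bp paired reads with Bowtie2 to their X. multilineatus transcripts, each named by its best match in X. maculatus, and deposited raw counts per transcript for each brain. The counting of pairs, strands and multiple matches is, in the sources used here, not stated, so counts of near-identical copies are uncertain. Each column was matched to a brain by its title, whose last word gives the group with 2 letters exchanged.

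Transcripts without a count (398) were left out of the tests. The others were fitted together, HQJE against LQJE, by the quasi-likelihood method of edgeR 4.0.16 (R 4.3.3, limma 3.58.1, TMM scaling). Standard errors were derived from each fold change and its F statistic. The alternatives were the exact and likelihood ratio tests of edgeR, DESeq2 1.42.0, other scalings, the filterByExpr filter, other limits of the rule and each brain left out. Both scripts were tested on simulated data. Correlations used log2(CPM + 1) where the mean reached 1 CPM. Intervals are for counting error alone and leave out the spread between fish. Reads lacking molecular identifiers may repeat a molecule, so the intervals may also be too narrow. The p-values set the group difference against a spread between these 4 fish that was estimated with information from all fitted transcripts.

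The transcripts, limits and lists were chosen with earlier results of these data known. By rule, 2 transcripts are given by identifier, by highest mean and by highest ratio. The other transcripts given by value, and pvalb1, were picked with their values known. Gene lists of brain cell types and pathways could not be matched and were not used, except the muscle list.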

Additional observations from a re-analysis of the deposited data

How the results depend on the processing

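The number of chosen transcripts followed the limits of the rule. It was 42 as described, 27 with total counts per brain as the scaling, 67 and 22 with a minimum mean of 100 and 400, 69 with a spread of at most 1.5, 142 with no limit on the spread, and 104 and 22 with a lower bound of 1.3 and 1.5. With 1 brain left out, where the spread limit then holds only in the group with 2 brains, it lay between 82 (fish 17 out) and 171 (fish 18 out), with 104 (fish 15 out) and 85 (fish 11 out) in between. The size factors and means were then those of the remaining brains, so the limit on the mean shifted too. The median log2 fold change of the 42 was -0.60, it was -0.59 with DESeq2 size factors and -0.53 with total counts, and it lay between -0.65 and -0.59 with each brain left out. The limits on ratio and spread bound how far this median can move when a brain is left out, so nothing is read from its steadiness. The number of transcripts with an adjusted p of 0.05 or less was 0 in edgeR's quasi-likelihood test, 28 with the edgeR exact test, 42 with the edgeR likelihood ratio test and 97 with DESeq2, and from 0 to 1 when a brain was left out, where the 1 call was made without LQJE fish 18. The number of the 42 with an unadjusted p of 0.05 or less was 42 in the quasi-likelihood test (4.58% of all tested transcripts in the same direction) and 41 with DESeq2 (3.29%). It was from 35 to 40 when a brain was left out, while the share of all tested transcripts moved from 2.09% (fish 11 out) to 7.07% (fish 18 out), and the rule, which selects for a low p, fixes much of these counts. In such fits the lone brain of a group is assumed to vary like the other group. Total counts moved the median log2 fold change of all transcripts to 0.05, against -0.02 with TMM scaling. The cause of these moves was not tested, other than that wider limits admit more transcripts. No paired analysis was possible because the fish numbers are not shared between the groups.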
